A study of Homo sapiens with 18 samples.

Results

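The accessibility of chromatin around 10 inflammatory cytokine and chemokine genes was read out in 3 head and neck squamous cell carcinoma (HNSCC) cell lines, SCC1, SCC6 and SCC25. The genes are IL1A, IL1B, IL6, TSLP, the receptor gene IL7R, and the chemokine genes CXCL1, CXCL2, CXCL3, CXCL8 and CCL20. A region of the deposited table was taken as a member when it overlapped the body of 1 of these genes extended by 20 kb on both sides (GENCODE release 44 on GRCh37/hg19), which gave 45 regions out of 115087. The genes were chosen by measured values of these data, namely the change of signal with cetuximab over all lines at a region downstream of IL7R, and joined with other genes of the same function. That region, IL7R +33.6 kb, is described here with no test of its change with treatment and is left out of every count of treatment effects.

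Cells were grown in DMEM and Ham's F12 with 10% fetal bovine serum and received 100 nM cetuximab, an antibody against the epidermal growth factor receptor (EGFR), or PBS each day for 5 days. ATAC-seq, in which the Tn5 transposase cuts and tags open chromatin, was then performed on isolated nuclei. Values were analysed for 17 libraries, with 3 in each of the 6 groups of line and treatment except for the untreated (PBS) group of SCC1, which had 2, since its replicate 2 was not analysed here. All libraries of a line come from that 1 cell line in culture, the labels do not say whether replicates were separate cultures, and p-values then measure only the spread between these libraries.

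Interleukin 1 alpha and 1 beta signal through the IL-1 receptor to the transcription factor NF-kB, which binds the promoters of many cytokine and chemokine genes. Interleukin 6 signals through gp130 to STAT3 and is made by many carcinomas. CXCL1, CXCL2, CXCL3 and CXCL8 bind the receptor CXCR2 and draw neutrophils, while CCL20 draws CCR6-positive lymphocytes and dendritic cells. TSLP, an epithelial cytokine, is read by a receptor made of CRLF2 and the alpha chain encoded by IL7R, which is also a subunit of the interleukin 7 receptor. In squamous epithelium the EGFR pathway and the IL-1 and NF-kB pathways are both known to act on these genes.

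The libraries held 2194851 to 15017130 reads in regions. The ranges of treated and untreated libraries overlapped in each line, in SCC1 with 2194851, 2959014 and 3665345 reads with cetuximab and 3577180 and 4171650 with PBS. The treated SCC1 libraries had fewer peaks (13035 to 27086 against 34763 and 36033), and the part of this in the SCC1 results below was not tested. All 10 promoters of squamous epithelial marker genes that were checked had a region with a peak in at least 1 library, and 0 had one in all. TP63 had one in 7 libraries, 0 of them from SCC1, and KRT5 had one in 8. Of 10 leukocyte markers 4 had one in any library, CSF1R in 9. PTPRC, which encodes the pan-leukocyte antigen CD45, was among those with no promoter region in the table. Of 10 fibroblast markers 5 had a promoter region with a peak, FAP in all 17 libraries and COL1A1 in 14. The deposited value of a region, called signal below, is its read count scaled by 1 constant per library, so that 1 read is worth 0.331 to 1.95 units. In bulk cells a lower signal can mean fewer cells with an open region or less cutting in each cell, and these cannot be told apart. The signal is not corrected for the number of DNA copies of a region in each line, which was not measured here.

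The member regions were 89 to 1096 bases long (median 296), and each had a peak in 2 to 17 of the 17 libraries (median 6). IL7R had 9 regions, IL6, CCL20 and TSLP had 6 each, IL1A, IL1B, CXCL2 and CXCL8 had 4 each, and CXCL1 and CXCL3 had 1 each. Regions are named below by the distance from the main start site of the gene in kb, with a minus sign for upstream. A peak was present in all 17 libraries at 3 regions, which were IL1A +19.5 kb (chr2:113521646-113522599), IL7R +27.2 kb (chr5:35884185-35884815) and CCL20 +4.1 kb (chr2:228682687-228683782). The first of these lies over the start of the neighbouring gene CKAP2L, and TSLP +20.5 kb lies over the start of WDR36, so these 2 may belong to those genes. IL1A and CXCL1 had no region that close to a start site as 1 kb, and the promoter region of CCL20 is at an alternative start site upstream of its main one.

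The 250 bases before the main start site held a match to the NF-kB motif GGANTTTCC, read on both strands, in 6 of the 10 genes, against 1.41% of 19819 promoters of coding genes. The motif was chosen because these genes are textbook targets of the factor, so the share is given as a description. The stretches of 29 bases around the matches are shown to compare the chemokine genes with each other and with IL6 and TSLP. They are from GRCh37, 5′ to 3′ on the strand of the gene, with the match in capitals:
CXCL1 (chr4:74735022-74735050, plus strand): tggaactccgGGAATTTCCctggcccggg
CXCL2 (chr4:74964971-74964999, minus strand): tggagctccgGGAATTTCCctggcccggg
CXCL3 (chr4:74904466-74904494, minus strand): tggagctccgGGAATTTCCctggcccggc
CXCL8 (chr4:74606185-74606213, plus strand): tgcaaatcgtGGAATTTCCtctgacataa
IL6 (chr7:22766737-22766765, plus strand): atcaaatgtgGGATTTTCCcatgagtctc
TSLP (chr5:110407211-110407239, plus strand): ggaaggtgagGGAAATTCCtgatgacttt
The matches of CXCL1, CXCL2, CXCL3 and CXCL8 are the same 9 letters, and those of CXCL1, CXCL2 and CXCL3 share most of their flanks too. CXCL1, CXCL2 and CXCL3 are close paralogs, and reads that align equally well to more than 1 of them may have been split or dropped, which was not tested. The stretch of TSLP lies in a coding exon of another annotated transcript of the gene and that of CXCL3 in an annotated exon outside the coding part.

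The first question was how open these genes were in untreated cells. At most of the member regions SCC1 had the highest signal. The mean untreated signal was highest in SCC1 at 30 of the 45 regions, in SCC6 at 11 and in SCC25 at 4. In one limma fit over the untreated libraries, 26 of 41 tested member regions were lower in SCC6 than in SCC1 and 6 were higher (limma with Benjamini-Hochberg adjustment over all regions, adjusted p under 0.05), where 30.5% of the 86315 regions tested were lower and 30.7% higher. Between SCC25 and SCC1, 24 were lower in SCC25 and 6 higher, with 23.1% and 28.2% over the whole table. SCC25 and SCC6 were split evenly, with 15 member regions higher in SCC25 and 16 lower (36.7% and 32.1% over the table). IL7R +33.6 kb is counted among the higher regions in both comparisons of SCC25, where it is a description only. Without IL7R +33.6 kb, the median log2 difference of the tested member regions was -0.99 for SCC6 against SCC1, -0.91 for SCC25 against SCC1 and -0.27 for SCC25 against SCC6. All tested regions had medians of -0.06, -0.04 and 0.06. These 3 comparisons share their libraries. With libraries scaled by the peak-free regions (those with no peak in the libraries compared), the split between SCC25 and SCC6 became 24 higher and 4 lower, as the median of all regions moved by 0.90, and with the trend over GC content removed it was 11 and 18. Over all 86315 regions the split was 53434 higher and 13988 lower with that scaling, and 28952 and 30997 with the GC trend removed.

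**Figure D1:**
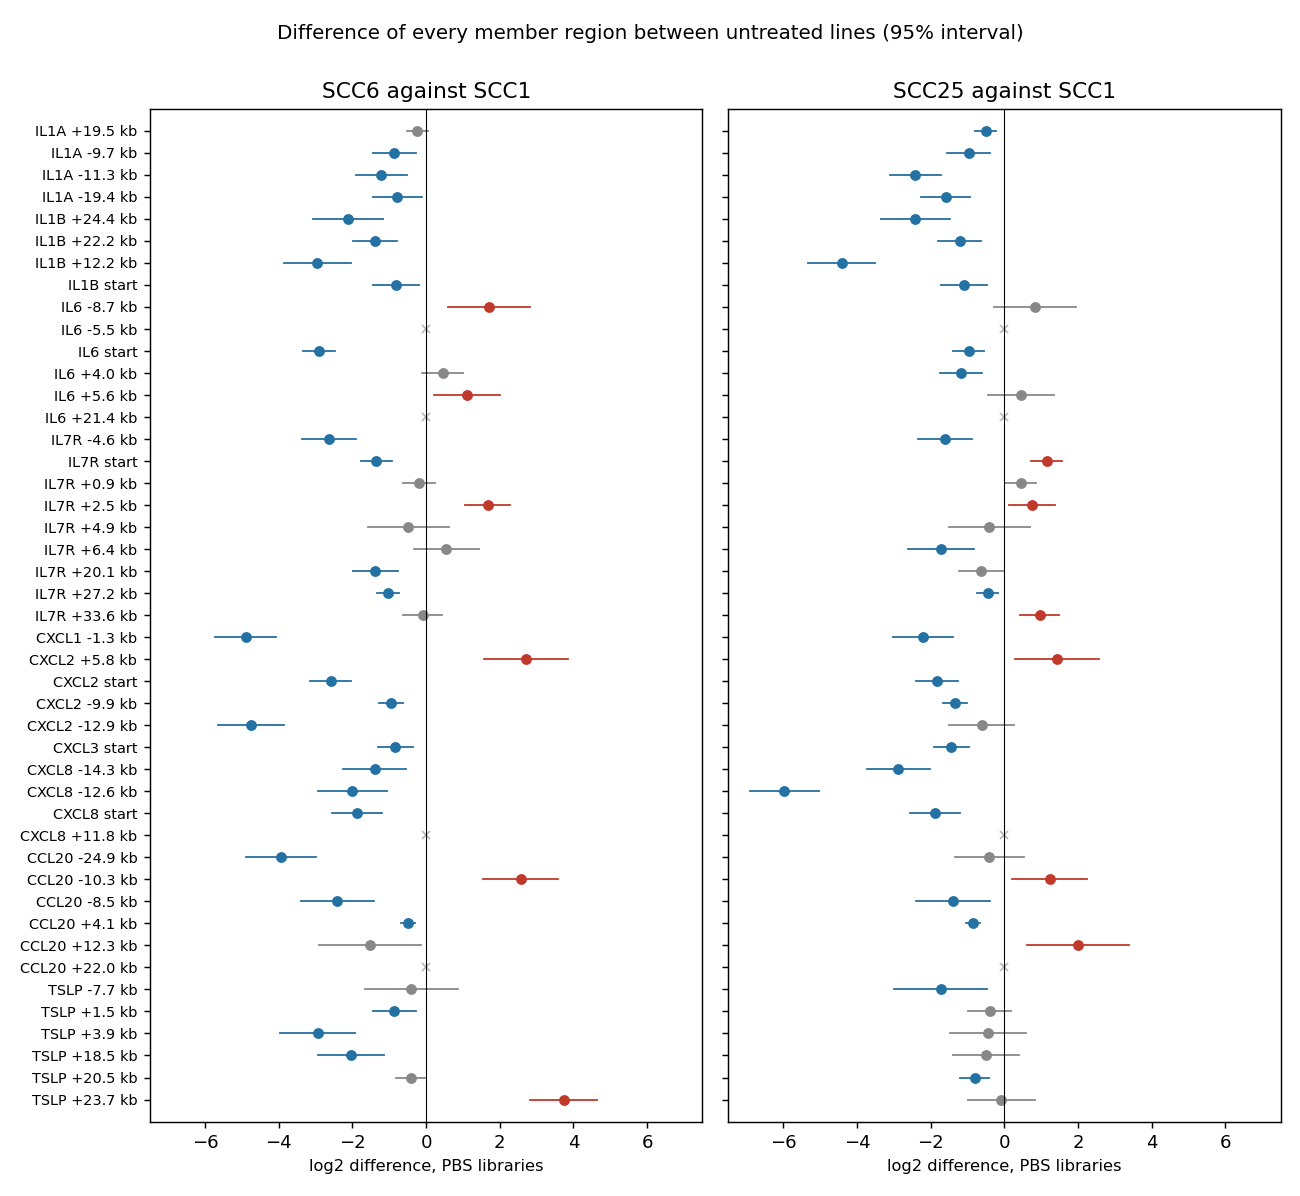
Difference in signal between untreated lines at each of the 45 member regions. Points are log2 differences with 95% intervals from limma, SCC6 against SCC1 on the left and SCC25 against SCC1 on the right, blue and red where the adjusted p was under 0.05 (lower and higher), grey where it was not, and a grey cross where the region was not tested. Blue points outnumber red points 26 to 6 on the left and 24 to 6 on the right. IL7R +33.6 kb is drawn and coloured with the others, but is a description only.

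The neutrophil chemokine genes differed widely between lines. At the CXCL2 start (chr4:74964703-74965246, over its first exon) the untreated signal was 125 ± 15.1 (SD, n = 2) in SCC1, 34.5 ± 4.53 (SD, n = 3) in SCC25 and 19.99 ± 3.77 (SD, n = 3) in SCC6. All 3 pairs of lines differed there, with log2 differences of -2.59 (SE 0.26, adjusted p = 5.09e-07) for SCC6 against SCC1, -1.82 (SE 0.26, adjusted p = 4.10e-05) for SCC25 against SCC1 and 0.77 (SE 0.24, adjusted p = 0.0092) for SCC25 against SCC6. The CXCL8 start (chr4:74606171-74606474) had an untreated signal of 94.98 and 92.7 in SCC1, 22.96, 27.4 and 23.9 in SCC6 and 21.9, 38.9 and 17.8 in SCC25. Both other lines were below SCC1, with log2 differences of -1.88 (SE 0.32, adjusted p = 9.28e-05) and -1.88 (SE 0.32, adjusted p = 1.56e-04), and SCC6 and SCC25 did not differ beyond their spread (0.01, 95% interval -0.60 to 0.61).

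Upstream of CXCL8 the contrast was wider. The region at CXCL8 -12.6 kb (chr4:74593399-74593693, between genes) had 138 and 165 in untreated SCC1, 35.04, 31.4 and 45.7 in SCC6 and 3.39, 0.721 and 0.848 in SCC25. SCC25 held only 9, 1 and 1 reads there, so the size of its difference depends on the 1 added before the log. The order SCC1, SCC6, SCC25 held without overlap between libraries, with log2 differences from SCC1 of -2.00 (SE 0.44, adjusted p = 9.94e-04) and -5.98 (SE 0.44, adjusted p = 6.08e-08). At CXCL1 -1.3 kb (chr4:74733651-74733767), the only region near CXCL1, untreated SCC1 had 67.7 and 62.5, SCC25 had 14.3, 12.3 and 13.6, and each SCC6 library had 1 or 2 reads. Reads of 0 had been set to 1 in the table, so no fold is given for SCC6, whose difference from SCC1 had an adjusted p of 2.80e-08. SCC25 was lower than SCC1 there, with a log2 difference of -2.20 (SE 0.39, adjusted p = 2.19e-04).

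CXCL2 -12.9 kb (chr4:74977776-74977947) is named for the low signal of SCC6 after its values were seen. Every untreated SCC6 library was listed at 1 read there, as was every treated one. Against a floor of 3 reads per library, SCC1 was at least 17.7-fold higher and SCC25 at least 11.6-fold higher. The CXCL3 start (chr4:74904041-74904835) had untreated means of 90.1 ± 11.5 (SD, n = 2) in SCC1, 50.2 ± 5.53 (SD, n = 3) in SCC6 and 32.7 ± 4.28 (SD, n = 3) in SCC25. The log2 difference from SCC1 was -0.83 (SE 0.23, adjusted p = 0.005) for SCC6 and -1.44 (SE 0.23, adjusted p = 9.14e-05) for SCC25, and the former did not pass without SCC1 untreated replicate 3 (0.0515). Not every region near these genes had a low signal in SCC6. CXCL2 +5.8 kb (chr4:74958690-74959094), also named after its values were seen, had 8.46, 28.8 and 31.5 in SCC6 and 3.903 and 1.12 in SCC1, a log2 difference of 2.70 (SE 0.54, adjusted p = 4.27e-04).

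The promoters of the interleukin genes followed a like order in part. The IL6 start (chr7:22766028-22767074, over the first exon and the antisense transcript IL6-AS1) had 169 and 189 in untreated SCC1, 94.6, 94.5 and 83.1 in SCC25 and 19.3, 24.1 and 26.1 in SCC6. The 3 lines were separate, with log2 differences of -2.90 (SE 0.20, adjusted p = 7.32e-09) for SCC6 against SCC1 and 1.93 (SE 0.18, adjusted p = 1.28e-07) for SCC25 against SCC6. The signal does not tell IL6 from its antisense transcript. At the IL1B start (chr2:113594386-113594635) the untreated means were 52.8 ± 12.1 (SD, n = 2) in SCC1, 29.5 ± 5.52 (SD, n = 3) in SCC6 and 23.98 ± 2.06 (SD, n = 3) in SCC25, and both other lines were lower than SCC1, with log2 differences of -0.81 (SE 0.29, adjusted p = 0.0237) for SCC6 and -1.09 (SE 0.29, adjusted p = 0.00538) for SCC25. Without SCC1 untreated replicate 3 neither of these 2 differences passed the test, and that of SCC6 also did not pass without SCC6 untreated replicate 1 or 2 or with the replicate block (0.0584). At IL1A -9.7 kb (chr2:113551782-113552084), the nearest to the IL1A start, SCC6 and SCC25 were lower than SCC1, with log2 differences of -0.86 and -0.97 (adjusted p = 0.0136 and 0.00839), and neither difference passed without SCC1 untreated replicate 1, nor did that of SCC25 with scaling by the peak-free regions (0.0643).

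The IL7R start (chr5:35856754-35857278, over the first exon, named after its values were seen) was most open in SCC25, with 166, 156 and 178, against 67.7 and 81.5 in SCC1 and 30.2, 32.1 and 23.9 in SCC6. The log2 differences were 1.16 (SE 0.20, adjusted p = 1.71e-04) for SCC25 against SCC1 and -1.35 (SE 0.20, adjusted p = 2.29e-05) for SCC6 against SCC1. At IL7R +0.9 kb (chr5:35857932-35858248, first intron), the strongest region within 1 kb of a start site, SCC25 was higher than SCC6 by 0.64 (SE 0.18, adjusted p = 0.00484), and SCC6 and SCC25 did not pass against SCC1. All SCC25 libraries lay above both SCC1 libraries there, with a log2 difference of 0.45 (SE 0.20, adjusted p = 0.0746). TSLP had its highest untreated mean in SCC1 at its promoter region and in SCC6 at +23.7 kb. The promoter region of TSLP at +1.5 kb (chr5:110408869-110409168), beside an alternative start, had 62.5 and 49.1 in SCC1, 38.8, 52.6 and 35.6 in SCC25 and 33.8, 24.1 and 32.6 in SCC6, where the log2 difference of SCC6 from SCC1 was -0.87 (SE 0.27, adjusted p = 0.012). That difference did not pass without SCC1 untreated replicate 1 (0.0986) or with the GC trend removed (0.0537). TSLP +23.7 kb (chr5:110431078-110431278, 3.03 kb from a start of WDR36), named after its values were seen, went the other way, with 38.7, 29.4 and 39.2 in untreated SCC6 against 1.301 and 2.23 in SCC1 and 0.754, 4.33 and 0.848 in SCC25. With the GC trend removed the log2 difference between SCC6 and SCC1 there went from 3.74 to 0.83 and did not pass (0.109).

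CCL20 had regions of both kinds. The alternative promoter at -8.5 kb (chr2:228669824-228670033) had an untreated mean of 42.1 ± 1.14 (SD, n = 2) in SCC1, 15.8 ± 4.78 (SD, n = 3) in SCC25 and 7.89 ± 4.75 (SD, n = 3) in SCC6, and the log2 difference of SCC6 from SCC1 was -2.41 (SE 0.47, adjusted p = 3.81e-04). A little further upstream, CCL20 -10.3 kb (chr2:228667766-228668257, over the processed pseudogene ENSG00000229172) was highest in SCC6, with 44.7, 24.8 and 25.01 against 2.602 and 6.700 in SCC1 and 10.9, 8.65 and 15.3 in SCC25. SCC6 exceeded SCC1 there by 2.57 (SE 0.48, adjusted p = 2.45e-04) on the log2 scale. Per kb of region, the strongest of the 10 regions at or nearest to a promoter in untreated SCC1 was that of CXCL1, with a signal of 556 per kb, followed by CXCL8 with 309, while in untreated SCC25 it was IL7R with 359.9 and in SCC6 again IL7R with 233.

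**Figure D2:**
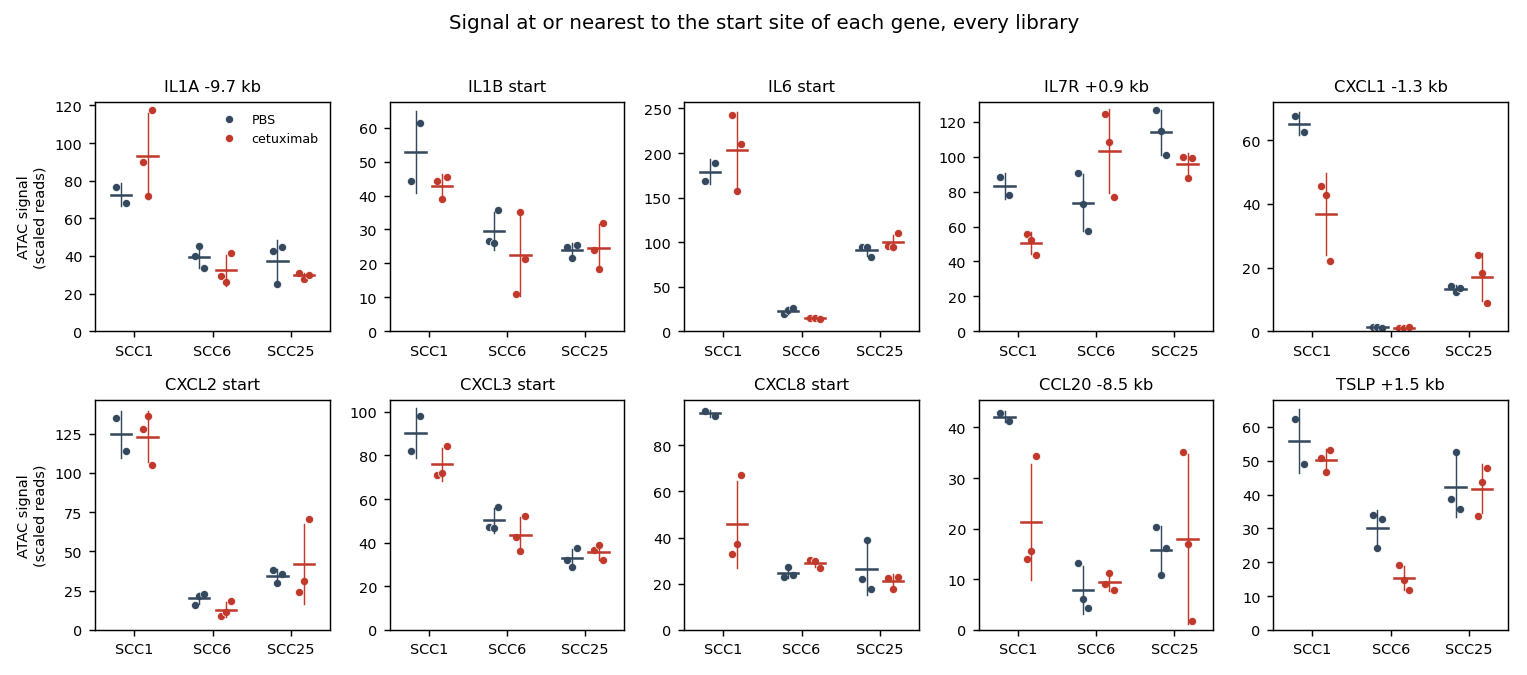
Signal in every library at the promoter region of each gene, or at the nearest region for IL1A and CXCL1. Each panel is 1 region, dots are libraries (scaled reads), blue for PBS and red for cetuximab, horizontal lines are group means and vertical lines are 1 SD to each side. The untreated SCC1 libraries lie above those of SCC6 in all panels but that of IL7R +0.9 kb, where the ranges overlap (78.2 and 88.5 against 57.6 to 90.6).

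The second question was what 5 days of cetuximab did to these regions in each line. In SCC1 regions of IL1B, IL7R, CXCL8 and TSLP were called lower. In SCC6 single regions of IL7R, CCL20, IL1B and IL6 were called higher and others lower, and in SCC25 none passed the test. The calls that held under every alternative were IL1B +12.2 kb and IL7R +27.2 kb in SCC1. In SCC6 they were IL7R +4.9 kb, CCL20 -10.3 kb and CCL20 +4.1 kb. In SCC1, 8 of 40 tested member regions were lower with cetuximab and 0 were higher, against 6.56% lower and 4.57% higher of the 86321 regions tested. The SCC1 count fell to 5 without cetuximab replicate 1 or with the GC trend removed, and to 4 with DESeq2. Over all regions the SCC1 calls fell from 9613 to 5691, 7835 and 5779 under these 3 settings. Both counts also fell without either untreated library, which leaves a single one. In SCC6, 4 of 38 were higher and 3 lower, which are smaller shares than the 16.9% and 10.6% of 86315. For the tested member regions the median log2 change reached -0.26 (SCC1), 0.21 (SCC6) and 0.01 (SCC25), beside -0.09, 0.11 and -0.08 over all tested regions. With each library centred on its median the SCC6 counts were 3 higher and 5 lower, and with scaling by the peak-free regions they were 14 and 1, as the median of all regions moved by -0.17 and 0.22. Over all 86315 regions the counts were 10394 higher and 15782 lower with the centring, and 26392 and 5260 with the scaling.

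In SCC25, limma called 0 of 39 tested member regions (0.0405% of all regions were higher and 0.275% lower), and edgeR and DESeq2 also called 0. An unadjusted limma p under 0.05 was found for 9 of the 39, and for 11405 of the 86315 regions tested. With scaling by the peak-free regions, 7 were lower in SCC25, where the median of all regions moved by -0.29 and 13491 of all 86315 regions were lower. A call in SCC1 or SCC6 that is missing in SCC25 does not show that the lines differ, which the interaction below tests.

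**Figure D3:**
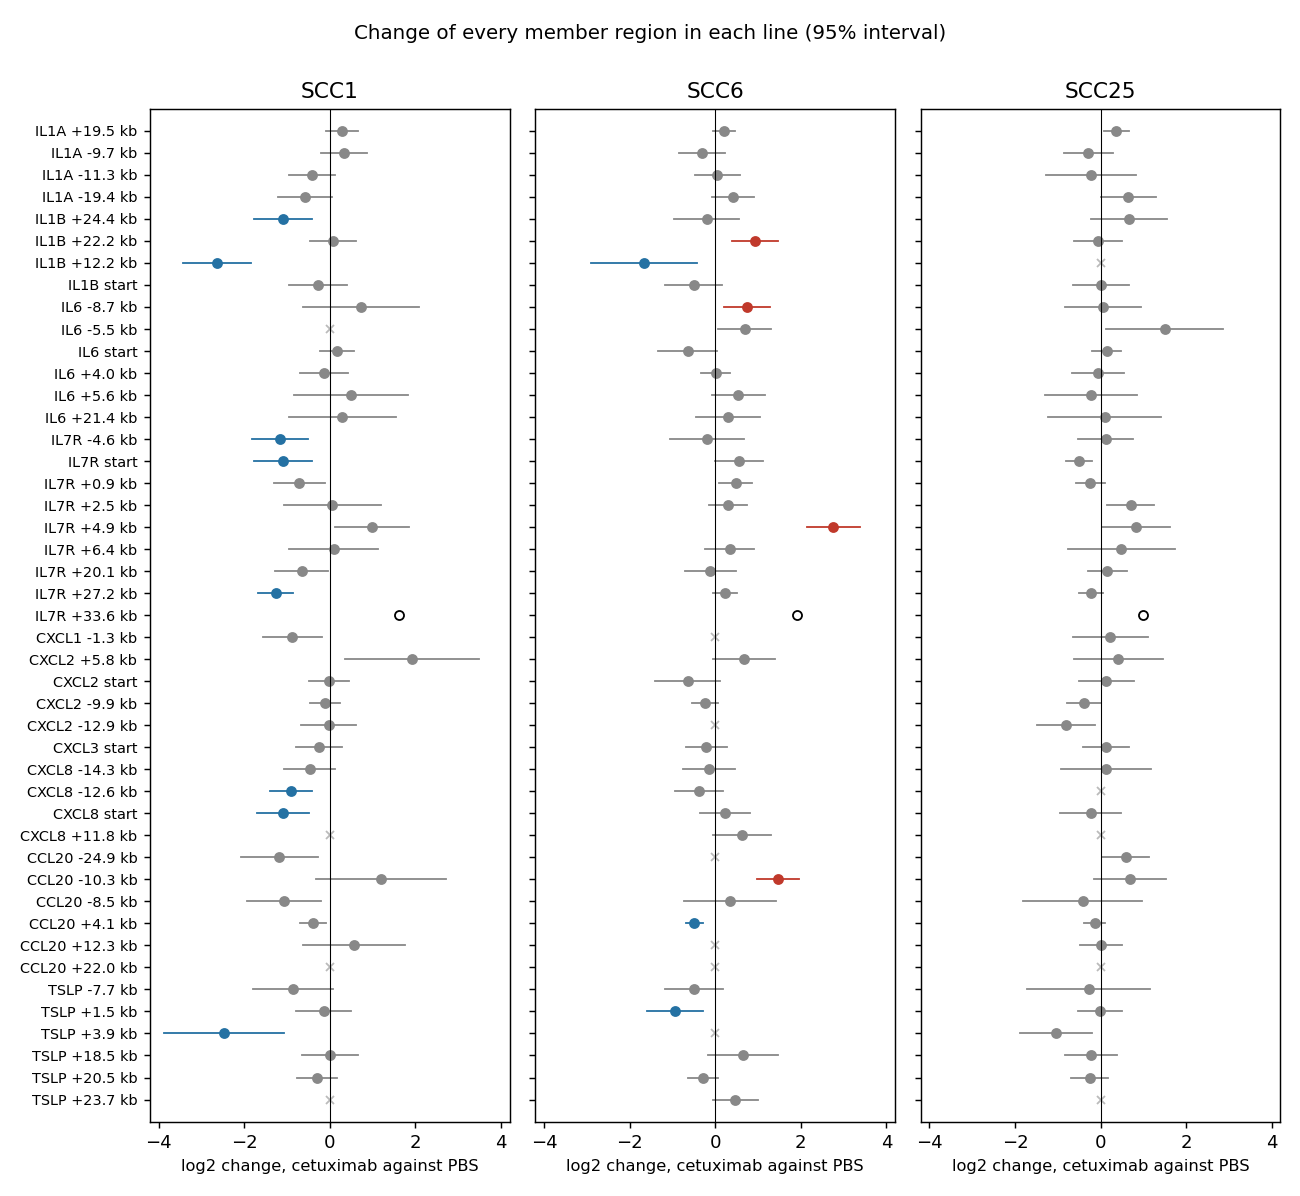
Change with cetuximab at each of the 45 member regions in SCC1, SCC6 and SCC25. Points are log2 changes against PBS with 95% intervals from limma, red for higher and blue for lower at an adjusted p under 0.05, grey for regions that did not pass, grey crosses for regions not tested, and open black circles with no interval for IL7R +33.6 kb, which was not counted. SCC1 has 8 blue points and SCC6 has 4 red and 3 blue.

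The IL7R locus held 3 of the 8 calls in SCC1, all lower, and 1 of the 7 in SCC6, which was higher. The 3 regions below are shown because the account of IL7R turns on them, each as the 200 bases around its middle (GRCh37, plus strand). A match to the AP-1 motif TGANTCA is in capitals, and neither the NF-kB nor the C/EBP motif (TTGCNNCAA) is found in them on either strand:
IL7R +4.9 kb (chr5:35861917-35862116, in an intron, no match): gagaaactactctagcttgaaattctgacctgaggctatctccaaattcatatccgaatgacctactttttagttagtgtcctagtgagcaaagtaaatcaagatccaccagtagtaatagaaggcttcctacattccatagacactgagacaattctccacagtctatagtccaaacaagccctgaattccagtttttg
IL7R +27.2 kb (chr5:35884400-35884599, downstream of the gene): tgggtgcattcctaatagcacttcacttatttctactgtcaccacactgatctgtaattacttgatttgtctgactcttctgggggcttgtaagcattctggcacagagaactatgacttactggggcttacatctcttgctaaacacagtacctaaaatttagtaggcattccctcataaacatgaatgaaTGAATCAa
IL7R +33.6 kb (chr5:35890736-35890935, downstream of the gene, no match): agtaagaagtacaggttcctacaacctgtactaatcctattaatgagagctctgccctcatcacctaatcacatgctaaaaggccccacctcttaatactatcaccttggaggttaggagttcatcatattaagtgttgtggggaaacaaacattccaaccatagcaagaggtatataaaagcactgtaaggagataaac
The AP-1 match was found in 12 of the 45 member regions (26.7%) and in 26.6% of all regions in windows of this length.

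IL7R +4.9 kb (chr5:35861875-35862159, in an intron) opened in SCC6. Its signal there was 106, 90.98 and 75.05 with cetuximab and 6.04, 14.1 and 21.8 with PBS. Every treated library was far above every untreated one, and the log2 change was 2.76 (SE 0.31, adjusted p = 2.96e-09). In SCC1 the signal was 34.3, 35.04 and 39.1 with cetuximab and 23.4 and 13.4 with PBS, a log2 change of 0.98 (SE 0.44, adjusted p = 0.134). SCC25 had 32.3, 16.9 and 24.8 and 13.9, 9.37 and 16.97, and its change of 0.82 did not pass either (adjusted p = 0.352).

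IL7R +27.2 kb (chr5:35884185-35884815), downstream of the last exon, closed in SCC1. The signal was 141, 140.1 and 86.1 with cetuximab and 311 and 267 with PBS, without overlap, for a log2 change of -1.26 (SE 0.21, adjusted p = 8.97e-07). SCC6 had 159, 163 and 169 against 132, 126 and 163, and SCC25 had 160.3, 208 and 174 against 217, 219 and 195. Their log2 changes of 0.23 and -0.23 did not pass (adjusted p = 0.204 and 0.477).

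At the 5′ end of the gene SCC1 closed as well. The IL7R start had 30.5, 46.7 and 28.2 with cetuximab against 67.7 and 81.5 with PBS in SCC1, a log2 change of -1.09 (SE 0.34, adjusted p = 0.0193). That call did not pass without SCC1 cetuximab replicate 1 or 3 (0.0705 and 0.066) or untreated replicate 1 or 3 (0.157 and 0.287), nor with median centring (0.061), the GC trend removed (0.0848) or DESeq2 (0.0959), which is 7 of 14 alternatives. In SCC6 it had 58.6, 29.7 and 43.6 against 30.2, 32.1 and 23.9, which overlap, with a change of 0.56 (SE 0.28, adjusted p = 0.126). SCC25 had 111, 132 and 109.8 against 166, 156 and 178, where all treated libraries were below all untreated ones and the change of -0.51 (SE 0.15, adjusted p = 0.128) did not pass. IL7R -4.6 kb (chr5:35852212-35852410), near an alternative start site and named after its values were seen, was also lower in SCC1, with a log2 change of -1.16 (SE 0.33, adjusted p = 0.00851) that did not pass without SCC1 cetuximab replicate 1 or either untreated library (0.0849, 0.166 and 0.148), nor with DESeq2 (0.104). At IL7R +0.9 kb the changes were -0.71 (SE 0.30, adjusted p = 0.115) in SCC1 and 0.48 (SE 0.19, adjusted p = 0.0591) in SCC6.

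IL7R +33.6 kb (chr5:35890571-35891101), the region that led to the choice of this gene, was higher with cetuximab in every line, which is a description. Its signal was 71.1, 117 and 108 against 27.3 and 34.6 in SCC1, 149.5, 97.5 and 95.5 against 29.00, 27.4 and 30.5 in SCC6, and 138, 130.3 and 101 against 66.3, 63.5 and 54.3 in SCC25. In untreated cells SCC25 had the highest signal of the lines, by 0.97 against SCC1 and 1.05 against SCC6 on the log2 scale. The untreated libraries entered the choice of this region, so these differences are a description too. The region is kept in the counts of differences between untreated lines, where it is among those higher in SCC25, so these counts are not free of that choice. At the next region inward, +27.2 kb, SCC1 moved in the opposite direction.

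**Figure D4:**
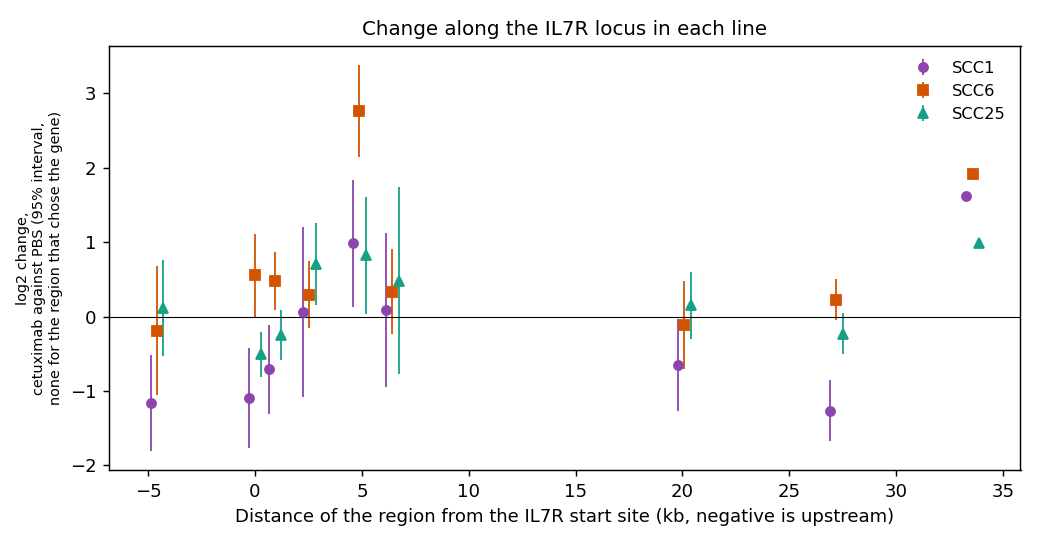
Change with cetuximab along the IL7R locus. The x axis is the distance of the 9 regions from the IL7R start site in kb and the y axis the log2 change against PBS with its 95% interval (none at +33.6 kb, which is a description), with purple circles for SCC1, orange squares for SCC6 and green triangles for SCC25, shifted sideways by line so that they do not cover each other. SCC1 lies below 0 at the start and at +27.2 kb (-1.09 and -1.26), and SCC6 peaks at +4.9 kb (2.76).

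The treatment effect differed between lines at 4 of the 41 member regions tested (limma F-test on the interaction of line and treatment, adjusted p under 0.05), where 13.2% of all regions did. All 4 were at IL7R, and these calls share the libraries of the changes above. The adjusted p was 3.78e-04 at +27.2 kb, 0.00526 at the start, 0.0205 at +0.9 kb and 0.0225 at +4.9 kb. At +27.2 kb the SCC6 change exceeded the SCC1 change by 1.49 on the log2 scale, and the SCC25 change exceeded the SCC1 change by 1.04. At +4.9 kb SCC6 exceeded SCC1 by 1.78. The calls at +27.2 kb and at the start held under every alternative. That at +0.9 kb did not pass without SCC1 untreated replicate 1, SCC6 cetuximab replicate 1 or 2, or SCC6 untreated replicate 3 (adjusted p of 0.0684, 0.0771, 0.056 and 0.0695), nor with median centring (0.107), quantile normalization (0.0565) or the GC trend removed (0.096). That at +4.9 kb did not pass without SCC6 cetuximab replicate 1 or 2 or SCC6 untreated replicate 1 (0.0766, 0.056 and 0.0897), nor with the GC trend removed (0.067).

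The lymphocyte chemokine gene CCL20 also had changes of both signs in SCC6. The upstream region at -10.3 kb opened, and its 200 central bases are shown for that reason (GRCh37, plus strand, no match to the 3 motifs):
CCL20 -10.3 kb (chr2:228667911-228668110): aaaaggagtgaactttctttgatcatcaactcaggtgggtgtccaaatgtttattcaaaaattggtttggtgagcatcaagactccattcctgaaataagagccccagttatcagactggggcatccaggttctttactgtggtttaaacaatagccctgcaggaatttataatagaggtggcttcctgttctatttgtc
Its signal in SCC6 was 116, 69.6 and 76.7 with cetuximab and 44.7, 24.8 and 25.01 with PBS, which do not overlap, and the log2 change was 1.46 (SE 0.25, adjusted p = 8.03e-06). SCC25 had 16.9, 16.9 and 23.02 against 10.9, 8.65 and 15.3 and SCC1 3.81, 9.73 and 32.9 against 2.602 and 6.700, with changes of 0.68 and 1.19 that did not pass (adjusted p = 0.496 and 0.355). In SCC1 1 treated library, replicate 3, accounts for most of the mean.

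CCL20 +4.1 kb, the widest member region, closed slightly in SCC6. The signal was 249.5, 257 and 249.6 with cetuximab and 338, 345 and 377 with PBS, a log2 change of -0.49 (SE 0.10, adjusted p = 9.67e-05). In SCC1 it was 360.5, 422 and 354 against 499.6 and 491, again without overlap, and the change of -0.39 (SE 0.15, adjusted p = 0.0691) did not pass. SCC25 overlapped, with 245, 281 and 219.6 against 287, 264 and 269 and a change of -0.14 (adjusted p = 0.638). At the alternative promoter (-8.5 kb) no line passed, and the change had 95% intervals of -1.93 to -0.19 (SCC1), -0.73 to 1.42 (SCC6) and -1.82 to 0.97 (SCC25).

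Downstream of IL1B the region at +12.2 kb (chr2:113581919-113582163, over an exon of the non-coding gene ENSG00000287937) closed in SCC1. It had 19.04, 5.84 and 31.3 with cetuximab and 89.8 and 113 with PBS, and the log2 change was -2.63 (SE 0.41, adjusted p = 2.19e-07). In SCC6, where it was nearly closed in untreated cells too, it held 1, 7 and 11 reads with cetuximab and 7, 22 and 13 with PBS, and the scaled values gave a change of -1.67 (SE 0.61, adjusted p = 0.0369). The SCC6 change did not pass without SCC6 cetuximab replicate 1 or 3 (adjusted p of 0.163 and 0.0557), with scaling by the peak-free regions (0.0534) or with the GC trend removed (0.0549). It was not tested in SCC25, where no library had over 14 reads.

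Further downstream of IL1B, 1 region passed in SCC1 and 1 in SCC6, and the interaction of line and treatment passed at neither (adjusted p = 0.132 at +24.4 kb and 0.201 at +22.2 kb). IL1B +24.4 kb (chr2:113569585-113569908) was lower in SCC1, with 48.2, 19.5 and 42.3 against 71.6 and 75.9 and a change of -1.09 (SE 0.34, adjusted p = 0.0213). This call was lost in 7 of 14 alternatives, which were median centring, the GC trend removed, DESeq2 and the replicate block (0.0646, 0.101, 0.165 and 0.181) and leaving out SCC1 cetuximab replicate 2 or either untreated library (0.123, 0.215 and 0.229). IL1B +22.2 kb (chr2:113571867-113572166), close to it, was higher in SCC6, with 37.4, 66.8 and 83.3 against 21.7, 36.1 and 36.98 and a change of 0.92 (SE 0.27, adjusted p = 0.008), which did not pass without SCC6 cetuximab replicate 2 or 3 or untreated replicate 1 (0.0513, 0.0789 and 0.074). At the IL1B start no line passed, and the log2 changes were -0.28, -0.50 and 0.01 in SCC1, SCC6 and SCC25 (adjusted p = 0.679, 0.256 and 0.994).

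CXCL8, the neutrophil chemokine also known as interleukin 8, closed at 2 of its 4 regions in SCC1. At its start the signal was 33.00, 36.98 and 67.3 with cetuximab and 94.98 and 92.7 with PBS, a log2 change of -1.09 (SE 0.31, adjusted p = 0.0086). The highest treated library stayed below both untreated ones. At CXCL8 -12.6 kb the values were 73.6, 77.9 and 89.2 against 138 and 165, with a change of -0.91 (SE 0.25, adjusted p = 0.00632). Neither call passed with 1 untreated SCC1 library left out, which leaves a single one, with adjusted p of 0.185 and 0.132 at the start and 0.0834 and 0.222 upstream, and the call at the start was also lost without SCC1 cetuximab replicate 1 (0.0797), with the GC trend removed (0.0645) and with DESeq2 (0.0945). In SCC6 and SCC25 the CXCL8 start had changes of 0.22 and -0.24 (adjusted p = 0.596 and 0.816).

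The CXCL2 and CXCL3 starts did not pass in any line, and CXCL1 -1.3 kb did not pass in SCC1 or SCC25. In SCC1 the log2 change was -0.87 (SE 0.35, adjusted p = 0.0851) at CXCL1 -1.3 kb, where the treated libraries had 45.7, 42.8 and 21.9 and the untreated ones 67.7 and 62.5. It was -0.02 at the CXCL2 start (95% interval -0.48 to 0.44) and -0.24 at the CXCL3 start (-0.78 to 0.29). In SCC6 the 2 starts had -0.64 (-1.41 to 0.12) and -0.21 (-0.69 to 0.27), and CXCL1 -1.3 kb was too low to be tested.

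IL6 and TSLP changed at single regions. The IL6 start, strong in SCC1 and SCC25, did not pass in any line, with log2 changes of 0.16 (95% interval -0.23 to 0.55) in SCC1, -0.64 (-1.33 to 0.05) in SCC6 and 0.14 (-0.21 to 0.49) in SCC25. IL6 -8.7 kb (chr7:22757871-22758099, also inside the body of the gene STEAP1B) was higher in SCC6, with 50.5, 51.99 and 39.7 against 37.5, 19.4 and 29.4 and a change of 0.74 (SE 0.27, adjusted p = 0.036). That call passed under 6 of 15 alternatives only, and leaving out SCC6 cetuximab replicate 1 or 2 or untreated replicate 2 or 3 took it away (0.0991, 0.14, 0.231 and 0.0591), as did median centring, quantile normalization, the GC trend removed, no filter and DESeq2 (0.0532 to 0.132).

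TSLP +3.9 kb (chr5:110411324-110411412, in an intron, the shortest member region) was lower in SCC1, with 5.08, 9.73 and 1.56 against 26.02 and 33.5 and a log2 change of -2.47 (SE 0.71, adjusted p = 0.01). The treated libraries held 4, 5 and 1 reads there, and the call did not pass with either untreated library left out (0.172 and 0.227). In SCC25, with 7.03, 13.03 and 10.6 against 21.9, 23.1 and 19.5, the libraries did not overlap and the change of -1.04 (SE 0.41, adjusted p = 0.262) did not pass. TSLP +1.5 kb, its promoter region, was lower in SCC6, where it had 19.2, 14.9 and 11.9 against 33.8, 24.1 and 32.6, with -0.94 (SE 0.33, adjusted p = 0.0259). Leaving out SCC6 cetuximab replicate 2 or 3 or untreated replicate 1 or 3 gave 0.0633 to 0.0843, and scaling by the peak-free regions 0.073. In the 2 other lines the change at TSLP +1.5 kb was -0.14 and -0.02 (adjusted p = 0.844 and 0.986).

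**Figure D5:**
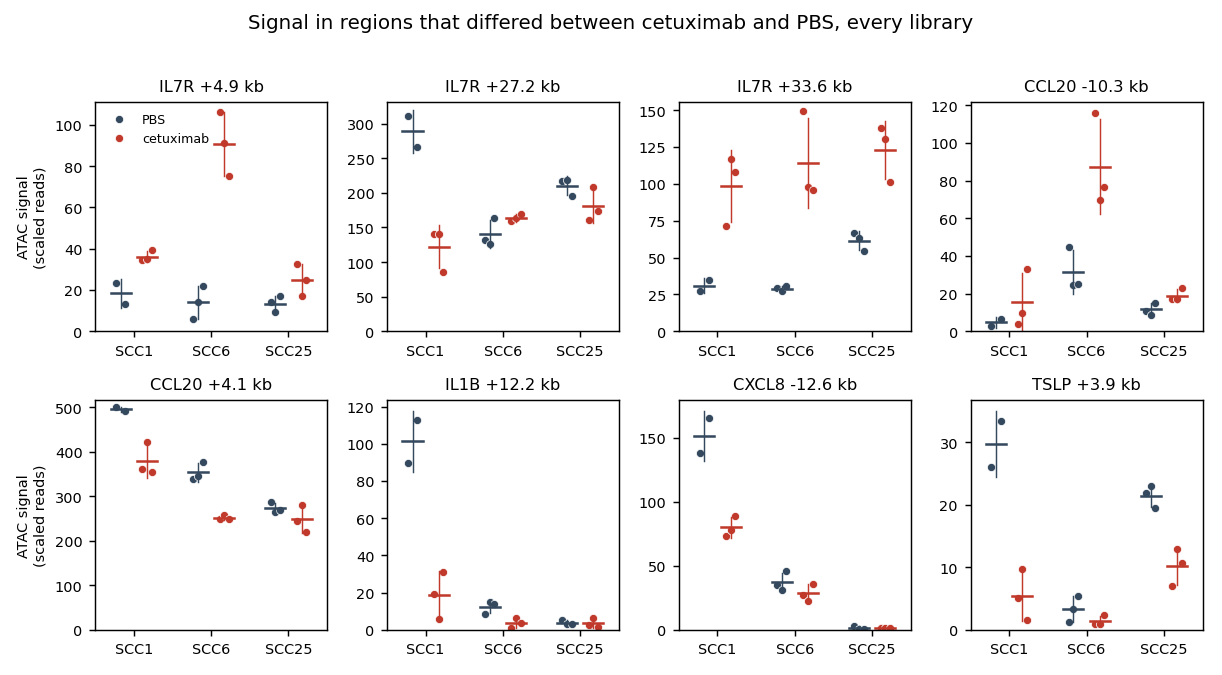
Signal in every library at 7 regions called with cetuximab in at least 1 line and at IL7R +33.6 kb. Dots are libraries (scaled reads), blue for PBS and red for cetuximab, horizontal lines are group means and vertical lines 1 SD to each side. At IL7R +4.9 kb the 3 treated SCC6 libraries lie between 75.0 and 106 and the untreated ones between 6.04 and 21.8, while at IL7R +27.2 kb the treated SCC1 libraries lie between 86.1 and 141 and the untreated ones at 267 and 311.

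Over all lines in 1 fit with the line as a covariate, 4 of 41 tested member regions were higher with cetuximab and 2 lower, against 5.14% and 7.04% of all regions. The median log2 change of the tested members was -0.13, and that of all regions 0.01. IL7R +4.9 kb had 1.56 (SE 0.29, adjusted p = 0.00153) and CCL20 -10.3 kb had 1.11 (SE 0.31, adjusted p = 0.0207), both with the largest change in SCC6. IL1A +19.5 kb, over the start of CKAP2L, was modestly higher, with 0.28 (SE 0.09, adjusted p = 0.0324). Its signal was 256, 214 and 249 against 183 and 209 in SCC1, 157, 211 and 209.9 against 158, 169 and 169 in SCC6, and 174, 169 and 188 against 147, 122 and 144 in SCC25. The call was lost under the replicate block (0.0646) and without any 1 of 6 libraries, which were SCC1 untreated replicate 1, SCC6 cetuximab replicates 2 and 3, SCC6 untreated replicate 1, SCC25 cetuximab replicate 3 and SCC25 untreated replicate 2 (0.0522 to 0.0667).

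The 2 lower regions were CCL20 +4.1 kb, with -0.34 (SE 0.07, adjusted p = 0.00414), and IL1B +12.2 kb, with -1.40 (SE 0.37, adjusted p = 0.0152). At IL1B +12.2 kb SCC25 held 2, 10 and 1 reads with cetuximab and 14, 4 and 4 with PBS. The SCC25 change there exceeded the SCC1 change by 2.49 on the log2 scale, and the interaction F-test did not pass (adjusted p = 0.0662). IL6 -5.5 kb (chr7:22761015-22761275, also inside STEAP1B), named after its values were seen, completed the higher set with 0.90 (SE 0.28, adjusted p = 0.0372). Its call was lost under the replicate block (0.127), with quantile normalization (0.158), with no filter (0.0583) and without SCC1 cetuximab replicate 2, SCC1 untreated replicate 3, SCC25 cetuximab replicate 2 or 3 or SCC25 untreated replicate 2 or 3 (0.0594 to 0.0871). In SCC6 it had 24.2, 42.7 and 33.1 against 21.7, 19.4 and 18.5, and it was close to empty in SCC1, with at most 4 reads in a library.

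Other genes of the same pathways were read out as counts, by the same rule for regions. For 20 further ligand genes such as CXCL5, LIF and CSF2, 6 of 54 tested regions were higher and 4 lower in SCC1, and 7 of 52 higher and 9 lower in SCC6. For 12 receptor genes such as IL1R1, IL6ST and CXCR2, 2 of 59 were higher and 10 lower in SCC1, and 9 of 58 higher and 9 lower in SCC6. For 14 genes of NF-kB and STAT3 signaling such as RELA, NFKBIA and SOCS3, 7 of 62 were higher and 7 lower in SCC1, and 7 of 58 higher and 8 lower in SCC6. The shares over all regions given above for SCC1 and SCC6 apply to these counts as well.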

How the data were processed

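ATAC-seq values of 17 libraries from SCC1, SCC6 and SCC25 cells were analysed. Per the methods and the submitters' processing notes, reads were trimmed (Trim Galore 0.5.0), aligned to hg19 (Bowtie2 2.3.2), and cleared of duplicates (Picard 2.18) and low-quality reads (SAMtools 1.9), and peaks were called per library with MACS2. The authors merged the peaks into 115087 regions and deposited 1 signal per region and library. All of these values were whole reads (within 0.001, with 0 reads set to 1) multiplied by 1 step per library. The deposited peak lists also hold a fold enrichment ratio and −log10 p and q values, of which only the peak positions were used. Coordinates are given as in the table, whose starts equal the zero-based starts of the peak lists.

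Differences were tested with limma 3.58.1 (trend, robust, two-sided) in R 4.3.3 on log2(signal + 1), so that fold changes of weak regions are understated, without the 25% of regions lowest in mean over the libraries of a fit. Benjamini-Hochberg adjustment ran over all regions, with a threshold of 0.05. Each line was fitted alone, all lines with the line as covariate, their interaction by an F-test, and the untreated libraries in 1 fit. The fits were run on simulated reads (dispersion 0.05) with 200 regions changed by 2 on the log2 scale. Recovered were 58.5% in SCC1, 80.5% in SCC6, 80.5% in SCC25 and 89.5% over all lines. For the interaction 39.5% were recovered, and 67.5% for untreated SCC6 against SCC1. False calls were, in this order, 2 of 119, 5 of 166, 6 of 167, 8 of 187, 13 of 92 and 14 of 149. edgeR 4.0.16 and DESeq2 1.42.0 on the recovered reads were alternatives, as were other scalings, a pseudocount of 5, no filter, a replicate block and leaving out each library. Read counts are without molecular identifiers and intervals come from the spread between libraries.

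Members, lists and rules were chosen with earlier results of these data known. Named with values in every library were the promoter region of each gene (within 1 kb of a start site, highest mean, else the nearest region), up to 3 regions per gene with the smallest adjusted p called in a single line, regions called over all lines with the same sign in each, and the region with the smallest interaction p if called. Others are said to be named after their values were seen. IL7R +33.6 kb, which had the smallest adjusted p of the IL7R regions over all lines, is the one singled out before, although the change of IL7R +4.9 kb was slightly larger.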

Additional observations from a re-analysis of the deposited data

Results flagged for a closer look

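At 4 regions of the IL7R locus the change with cetuximab differed between the lines, by an F-test on the line-by-treatment terms. These were 4 of 41 member regions tested, a smaller share than the 13.2% called over all regions. At IL7R +27.2 kb (adjusted p = 0.000378) SCC1 changed by -1.26 on the log2 scale, SCC6 by 0.23 and SCC25 by -0.23. At the IL7R start (adjusted p = 0.00526) it was -1.09, 0.56 and -0.51 in the same order. IL7R +0.9 kb (adjusted p = 0.0205) had -0.71, 0.48 and -0.25, and IL7R +4.9 kb (adjusted p = 0.0225) had 0.98, 2.76 and 0.82. Over the alternatives the limma, edgeR or DESeq2 adjusted p ranged from 1.39e-07 to 0.00683 at +27.2 kb, 0.000346 to 0.0296 at the start, 0.00988 to 0.107 at +0.9 kb and 0.00409 to 0.0897 at +4.9 kb.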

How the results depend on the processing

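Of 21 called changes of member regions with cetuximab, 9 kept direction and call under every alternative run, and of 93 called differences between untreated lines 58 did. The differences between untreated lines include those of IL7R +33.6 kb. The counts of called member regions that moved by over 1.5 times were 5 with the GC trend removed and 4 with DESeq2 in SCC1 (8 in the main fit), 15 in SCC6 (7) and 7 in SCC25 (0) when scaled by the peak-free regions, and 7 with edgeR for the interaction (4). Over all regions the same settings called, in this order, 7835 and 5779 (9613 in the main fit), 31652 (23774), 13597 (272) and 17112 (11388). Leaving out 1 library gave 2 to 9 calls in SCC1, 4 to 6 in SCC6, 0 in SCC25, 4 to 6 over all lines, 2 to 6 for the interaction, and 27 to 32, 25 to 31 and 23 to 31 for untreated SCC6 against SCC1, SCC25 against SCC1 and SCC25 against SCC6. The low end in SCC1 comes from leaving out either of its untreated libraries, whose spread then comes from the treated ones alone. Over all regions, leaving out 1 SCC1 cetuximab library gave 5691 to 12600 calls in SCC1. Leaving out 1 library gave 17029 to 25690 in SCC6, 0 to 576 in SCC25 and 7396 to 11326 over all lines. With the untreated SCC1 libraries kept, the interaction had 8848 to 14275. The differences between untreated lines then had 48626 to 52927, 37265 to 46808 and 55040 to 56200, in the order above. Between untreated SCC25 and SCC6 that scaling turned 5 lower regions to log2 differences above 0, with 0.10 at IL1A -19.4 kb, 0.54 at CXCL2 -9.9 kb, 0.31 at the CXCL3 start, 0.56 at CCL20 +4.1 kb and 0.54 at TSLP +20.5 kb. That scaling was not run over all lines or for the interaction, since only 300 regions lacked a peak. Causes were not tested.

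Same-numbered libraries of a line did not deviate together (correlation of deviations -0.042 to 0.0265). With so few libraries per group this cannot settle whether the numbers pair them, and the labels state no pairing. With the replicate block the counts of called member regions were 9 in SCC1, 8 in SCC6, 0 in SCC25, 4 over all lines, 4 for the interaction, and 31, 28 and 30 between untreated lines. Over all regions the block gave, in this order, 12451, 24768, 744, 4271, 13204, 50988, 41630 and 58771 calls. The main fit had called 9613, 23774, 272, 10511, 11388, 52827, 44291 and 59309. Reads per library limit the weak regions, and SCC1 had 2 untreated libraries, so a change that did not pass there may be too small to detect with its depth and number of libraries.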

Other observations

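In the 200 bases around the middle, 5 of the 45 member regions held the NF-kB motif, against 1.20% of all regions, namely IL1B +22.2 kb, CXCL2 +5.8 kb, the CXCL2 and CXCL3 starts and CXCL8 -14.3 kb. Of these, IL1B +22.2 kb was called with cetuximab in SCC6 and none in SCC1. The C/EBP motif was found in 1 member region (2.22%) and in 1.78% of all regions, and in the 250 bases before the start site in 0 of the 10 genes and in 1.30% of all promoters. AP-1 matched in 2 of the 10 genes before the start site, IL1A and CXCL8, against 4.70% of all promoters.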
